A study of Mus musculus with 12 samples.

Results

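Atf4 and 9 genes known to act with it or below it in cellular stress were followed in mouse oligodendrocyte progenitor cells (OPCs), the dividing precursors of myelinating glia. The 10 genes, Atf4, Chac1, Trib3, Sesn2, Ddit4, Ddit3, Atf5, Cebpb, Cebpg and Nupr1, were picked by name from the 35385 symbols of the deposited tables, with earlier results of these data known. All 10 were among the 12009 genes that were expressed well enough to be tested. The OPCs were derived from pluripotent stem cells, were given 1 h to settle in a differentiation-permissive medium, and were then kept for 4 h with 1 of 3 quaternary ammonium compounds or with their solvent. One group received cetylpyridinium chloride (CPC, a pyridinium ring with a long alkyl chain), another C12-C14-alkyl(ethylbenzyl)dimethylammonium chloride (AEBDAC, with an ethylbenzyl ring and an alkyl chain), and another methyltrioctylammonium chloride (MTOAC, with octyl chains and no aromatic ring). The control group received the vehicle, DMSO. The dose was the IC75 of each compound, a concentration that inhibits by 75%. Doses were therefore set by an effect and not by concentration, and the labels give no concentrations. All 4 groups had 3 libraries, numbered 1 to 3. No label names separate cultures, cell lines or days, so every p-value below measures the spread between these libraries, which may be technical.

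In the integrated stress response, kinases that sense endoplasmic reticulum stress, amino acid shortage, heme shortage or double-stranded RNA phosphorylate the translation factor eIF2. General translation then falls, while the Atf4 mRNA is translated more, and the ATF4 protein, a basic leucine zipper (bZIP) factor, switches on genes of amino acid supply and redox balance and also genes that end the response or lead to cell death. CHOP, the product of Ddit3, C/EBPβ and C/EBPγ can pair with ATF4 on DNA. In oligodendrocytes this response is known from inherited myelin diseases and from inflammation. RNA sequencing reads transcript levels only, so neither eIF2 phosphorylation nor ATF4 protein was measured here.

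Values are TPM, shares of all transcripts after correction for transcript length. Levels of different genes are set side by side below as listed. Some genes are listed low, such as Actb at 31.6 to 76.2 TPM. Whether the value of each gene holds all its transcripts was not tested, so comparisons of level between genes are uncertain. Fold changes are limma estimates on log2(TPM + 1), called at a Benjamini-Hochberg adjusted p under 0.05 over the 12009 genes. The median gene lay at -0.17, -0.16 and -0.22 log2 against vehicle with CPC, AEBDAC and MTOAC, and single fold changes are given as fitted, without subtracting this shift. Library totals lay between 772637 and 797758 TPM, and between 15431 and 16210 symbols were above 0. These totals are below the full sum that TPM have by definition, for a reason that was not tested. Vehicle library 1 stood apart from the other 11: its mitochondrially encoded transcripts summed to 86422 TPM, against 147539 to 183001 TPM elsewhere, and it had 0 TPM of mt-Nd3, where the others had 8716 to 13261 TPM. All 8 OPC markers were tested, and their summed level was 1577 to 1728 TPM with CPC, 1458 to 1726 TPM with AEBDAC and 1248 to 1357 TPM with MTOAC, against 1967 to 2347 TPM in vehicle. The most abundant, Olig1, had means of 782, 682 and 531 TPM with CPC, AEBDAC and MTOAC, against 1194 TPM in vehicle. Not every marker fell alike. Cspg4 had means of 35.6, 37.2 and 25.7 TPM, against 31.7 TPM in vehicle. Those of Ptprz1 were 306, 327 and 332 TPM, against 337 TPM in vehicle. The 5 neuronal markers summed to 324 to 389 TPM with CPC, 307 to 345 TPM with AEBDAC and 258 to 341 TPM with MTOAC, against 424 to 470 TPM in vehicle, nearly all of it Map2, while Snap25 and Syt1 stayed under 3 TPM in every library. The 5 microglial markers were under 1 TPM in all 12 libraries, with Cx3cr1 at 0, and astrocyte markers summed to at most 51.8 TPM, with Gfap at most at 1.41 TPM. Of 5 mesenchymal markers 4 were under 1 TPM throughout. The other, Acta2, was at 36.3 to 90.4 TPM with the compounds, against 32.9 to 50.5 TPM in vehicle, and was not called. Of 5 pluripotency markers 3 were under 1 TPM throughout, and Esrrb was at 2.89 to 5.95 TPM. Pou5f1 was at 7.83 TPM in vehicle library 1, at 9.64 TPM in MTOAC library 3 and at 0 elsewhere. In bulk samples fewer cells of a type and less RNA per cell cannot be told apart, and the part of these marker differences in the results below was not tested.

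The promoter windows of the genes were read for the letters that ATF4 is known to bind. C/EBP-ATF response elements hold the core TGATGNAA, whose reverse complement is TTNCATCA, and both strands were searched from 250 bases before to 50 bases after each transcript start in RefSeq (GRCm38.p6). All 10 genes had a window, Atf5 having 2, and the core was found in 3 genes, Chac1, Nupr1 and Trib3, against 3.97% of the 32851 windows of all genes and 2.08% of the 11698 windows of tested genes. The windows around the matches of Chac1 and Nupr1 are shown because both hold the same 8 letters, in capitals, before the RefSeq start, in genes whose levels and fold changes differ below. Gene spans given further on are those of GENCODE and do not always begin at the RefSeq start: that of Nupr1 begins further upstream, so its window lies within the span, and that of Trib3 begins further downstream, so its match lies just outside it.
Chac1, chr2:119350999-119351106, plus strand, match starting 193 bases upstream of the transcript start: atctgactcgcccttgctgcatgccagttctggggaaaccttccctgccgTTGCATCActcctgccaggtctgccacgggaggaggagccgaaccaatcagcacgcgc
Nupr1, chr7:126625523-126625630, minus strand, match starting 110 bases upstream of the transcript start: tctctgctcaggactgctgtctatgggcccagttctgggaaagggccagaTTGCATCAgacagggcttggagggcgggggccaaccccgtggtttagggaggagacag
In Trib3 the letters TTACATCA began 15 bases downstream of the start, at chr2:152344039-152344046. Among 31 other known targets of ATF4 or CHOP with a window, 12 held the core, 6 of them genes called higher below (Asns, Pck2, Slc1a4, Fgf21, Vldlr and Herpud1) and 6 not (Aars, Atf3, Gars, Jdp2, Pycr1 and Slc7a11). None of 7 eIF2 kinase and phosphatase genes, 7 paralogues of the 10 genes and 29 other bZIP genes did. The palindromic cAMP response element TGACGTCA was in 0 of the 10 genes, against 1.79% of all windows and 3.07% of those of tested genes. A match of letters describes the window and is no evidence of binding, and no match says nothing of sites elsewhere.

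Atf4 itself (chr15:80255184-80257541, plus strand, GRCm38) was the most abundant of the 10 transcripts in every group and was higher in each of the 9 exposed libraries than in any vehicle library. It stood at 265, 384 and 359.6 TPM in CPC libraries 1 to 3, at 381, 444 and 445 TPM in AEBDAC libraries 1 to 3 and at 366, 432 and 301 TPM in MTOAC libraries 1 to 3, against 132, 176 and 219.8 TPM in vehicle libraries 1 to 3. The lowest exposed library, CPC library 1, thus lay above the highest vehicle library, library 3, and the lowest vehicle library was the one that stood apart. The means were 336 ± 62.8, 423 ± 36.5 and 366 ± 65.4 TPM with CPC, AEBDAC and MTOAC, against 176 ± 43.8 TPM in vehicle (SD, n = 3 each). Atf4 rose by 1.29 log2 with AEBDAC (SE 0.20, adjusted p = 0.0207) and by 1.07 log2 with MTOAC (SE 0.20, adjusted p = 0.0162). With CPC the difference of 0.94 log2 (SE 0.20) did not pass (adjusted p = 0.12). In that comparison same-numbered libraries deviated together, and it did pass once the replicate number entered as a block (adjusted p = 0.0448). Averaged over the 3 compounds, the rise was 1.10 log2 (SE 0.16, adjusted p = 0.00805) and passed under all 17 alternatives tried. The call for AEBDAC was lost without vehicle library 1 (adjusted p = 0.0502), vehicle library 2 (0.0791), AEBDAC library 2 (0.134) or AEBDAC library 3 (0.11), and that for MTOAC without MTOAC library 2 (0.0638).

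**Figure D1:**
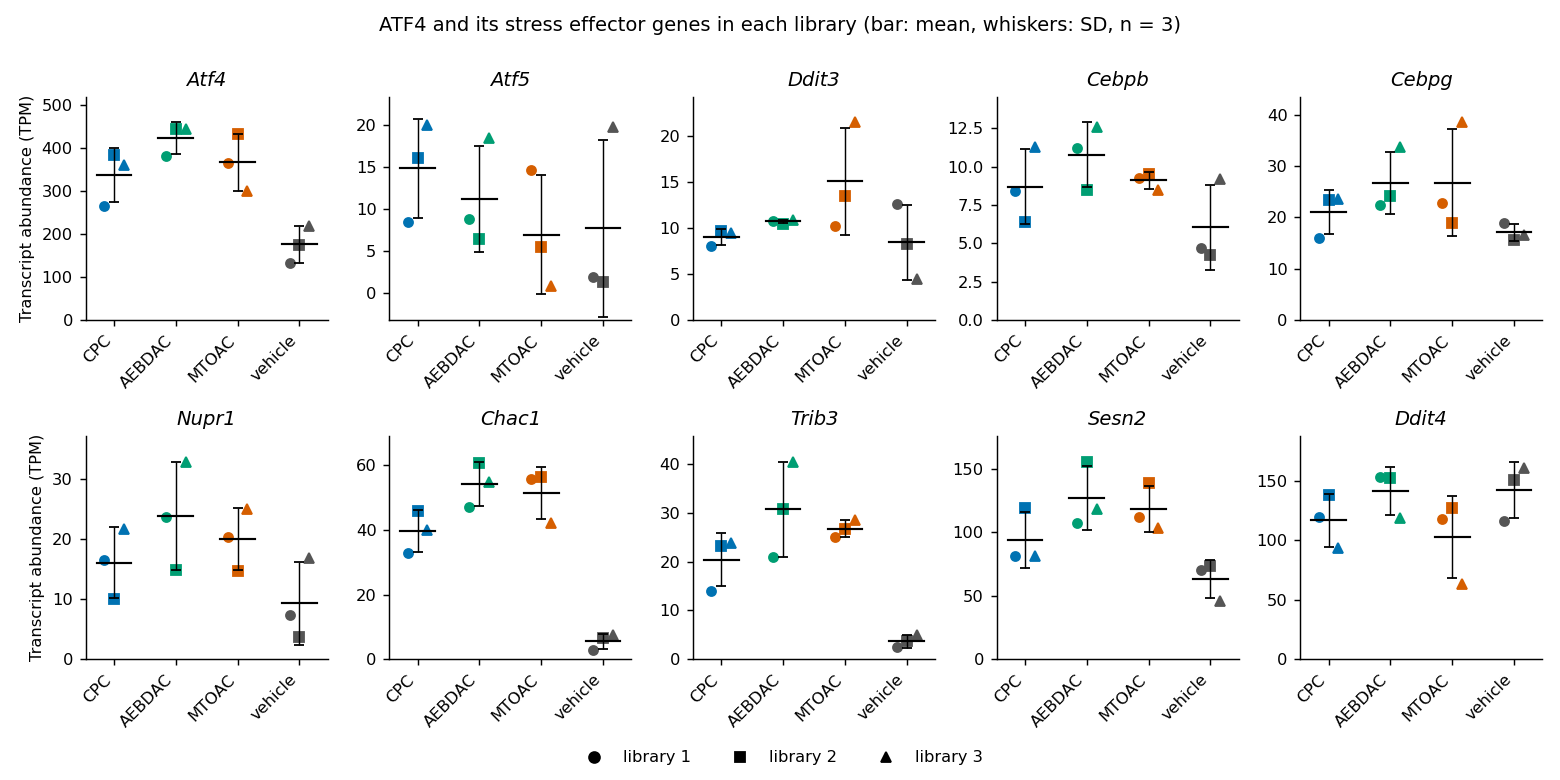
Transcript abundance in TPM (y axis, linear) of the 10 genes in each of the 12 libraries, by group on the x axis; symbols mark libraries 1 to 3, bars the mean and whiskers the SD of 3 libraries, which for Atf5 reaches below 0. Chac1 lies between 33.0 and 60.7 TPM in the exposed libraries, against 3.05 to 7.42 TPM in vehicle, while Ddit4, Ddit3 and Atf5 overlap vehicle with every compound.

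Chac1 (chr2:119351229-119354381, plus strand) encodes a cytosolic enzyme that cleaves glutathione, the main thiol buffer of the cell, and its transcript moved the most of the 10. It was at 33.0, 45.9 and 40.0 TPM in CPC libraries 1 to 3, at 47.1, 60.7 and 54.9 TPM in AEBDAC libraries 1 to 3 and at 55.8, 56.3 and 42.2 TPM in MTOAC libraries 1 to 3, against 3.05, 6.50 and 7.42 TPM in vehicle libraries 1 to 3. Every exposed library was thus more than 4 times as high as any vehicle library. The ratio of the group means to vehicle was 7.001 with CPC, 9.58 with AEBDAC and 9.09 with MTOAC. On the log2 scale Chac1 rose by 2.66 with CPC (adjusted p = 0.00425), by 3.11 with AEBDAC (adjusted p = 0.000531) and by 3.03 with MTOAC (adjusted p = 0.0006), with an SE of 0.25 each. Among the 12009 genes these were the 5th, 3rd and 7th highest fold changes. Without vehicle library 1, where Chac1 was lowest, the rises were 2.34, 2.79 and 2.71 log2 and were still called. The only alternative that ended a call was the fit of the CPC and vehicle libraries alone (adjusted p = 0.148), and with AEBDAC and MTOAC Chac1 was called in 12 of 12 alternatives each.

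Trib3 (chr2:152337422-152344032, minus strand), a pseudokinase that binds ATF4 and the kinase AKT and restrains ATF4 in a feedback loop, followed the same pattern at a lower level. Its TPM were 14.1, 23.2 and 23.8 in CPC libraries 1 to 3, 21.0, 30.6 and 40.4 in AEBDAC libraries 1 to 3 and 25.0, 26.6 and 28.5 in MTOAC libraries 1 to 3, against 2.45, 3.67 and 5.08 in vehicle libraries 1 to 3. No exposed library overlapped vehicle, and the MTOAC libraries were the closest to each other. The rise was 2.18 log2 with CPC (adjusted p = 0.0246), 2.73 log2 with AEBDAC (adjusted p = 0.00279) and 2.58 log2 with MTOAC (adjusted p = 0.00228), with an SE of 0.28 each. With CPC the call rested on few libraries. It was lost without vehicle library 1 (1.97 log2, adjusted p = 0.0841), vehicle library 2 (adjusted p = 0.0631), CPC library 2 (0.165) or CPC library 3 (0.116). With MTOAC it held in 12 of 12 alternatives and with AEBDAC in 11, the exception being the fit of those 2 groups alone (adjusted p = 0.0636).

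Sesn2 and Ddit4 both encode proteins that hold back the growth kinase complex mTORC1, Sesn2 as a sensor of leucine and Ddit4, also called REDD1, through the TSC complex. They went different ways. Sesn2 (chr4:132492032-132510501, minus strand) was at 81.8, 119 and 81.3 TPM in CPC libraries 1 to 3, at 107, 156 and 119 TPM in AEBDAC libraries 1 to 3 and at 113, 139 and 104 TPM in MTOAC libraries 1 to 3, against 70.3, 73.4 and 46.1 TPM in vehicle libraries 1 to 3. All exposed libraries lay above all vehicle libraries, the CPC ones by the smallest margin. Sesn2 rose by 0.91 log2 with MTOAC (SE 0.22, adjusted p = 0.0359), while the differences of 1.01 log2 with AEBDAC (adjusted p = 0.0525) and 0.57 log2 with CPC (adjusted p = 0.299) did not pass. With AEBDAC it passed under quantile normalization (adjusted p = 0.0439), rescaling without mitochondrially encoded genes (0.0417) and the replicate block (0.00694), and in 0 of 6 fits without 1 library. Averaged over the compounds it rose by 0.83 log2 (SE 0.18, adjusted p = 0.0223). The MTOAC call held in 5 of 12 alternatives and was lost without vehicle library 1 (adjusted p = 0.0589), 2 (0.0528) or 3 (0.0893) and without MTOAC library 1 (0.0764) or 2 (0.119). The averaged call was lost without vehicle library 1 (0.0591) or 3 (0.0806).

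Ddit4 (chr10:59949669-59951834, minus strand) was the second most abundant of the 10 transcripts in vehicle. It was at 119, 138 and 93.3 TPM in CPC libraries 1 to 3, at 153, 153 and 118 TPM in AEBDAC libraries 1 to 3 and at 118, 127 and 63.4 TPM in MTOAC libraries 1 to 3, against 116, 150.3 and 161 TPM in vehicle libraries 1 to 3. The groups overlapped with every compound, and in each exposed group library 3 was the lowest, while in vehicle it was the highest. Ddit4 was the only one of the 10 with a fold change below 0 with all 3 compounds, at -0.29, -0.01 and -0.52 log2 with CPC, AEBDAC and MTOAC (SE 0.25 each). None passed (adjusted p = 0.638, 0.992 and 0.234), and the near-zero value with AEBDAC changed sign under 5 alternatives, among them quantile normalization (0.0705 log2) and rescaling without mitochondrially encoded genes (0.00695 log2). The 95% interval with AEBDAC, not adjusted for the number of genes, ran from -0.56 to 0.54 log2, so a change of either sign is not excluded.

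Because TPM are scaled within a library, a ratio of 2 transcripts of the same library does not depend on that scaling. Per 100 TPM of Atf4, Chac1 was at 12.4, 11.9 and 11.1 TPM in CPC libraries 1 to 3, at 12.4, 13.7 and 12.3 TPM in AEBDAC libraries 1 to 3 and at 15.2, 13.0 and 14.0 TPM in MTOAC libraries 1 to 3, against 2.31, 3.70 and 3.38 TPM in vehicle libraries 1 to 3. For Trib3 the ratio was 5.31 to 6.62 with CPC, 5.51 to 9.09 with AEBDAC and 6.16 to 9.46 with MTOAC, against 1.86 to 2.31 in vehicle. Both transcripts were thus higher relative to Atf4 in all 9 exposed libraries. The ratio of Ddit4 was lower, at 26.0 to 44.9 TPM per 100 TPM of Atf4 with CPC, 26.7 to 40.2 with AEBDAC and 21.1 to 32.2 with MTOAC, against 73.3 to 87.9 in vehicle. Ddit4 itself was not called with any compound, while its denominator Atf4 was higher in every exposed library, which lowers the ratio. Sesn2 overlapped, at 22.6 to 31.0 with CPC, 26.7 to 35.1 with AEBDAC and 30.7 to 34.4 with MTOAC, against 21.0 to 53.2 in vehicle. These ratios are a description and were not tested.

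**Figure D2:**
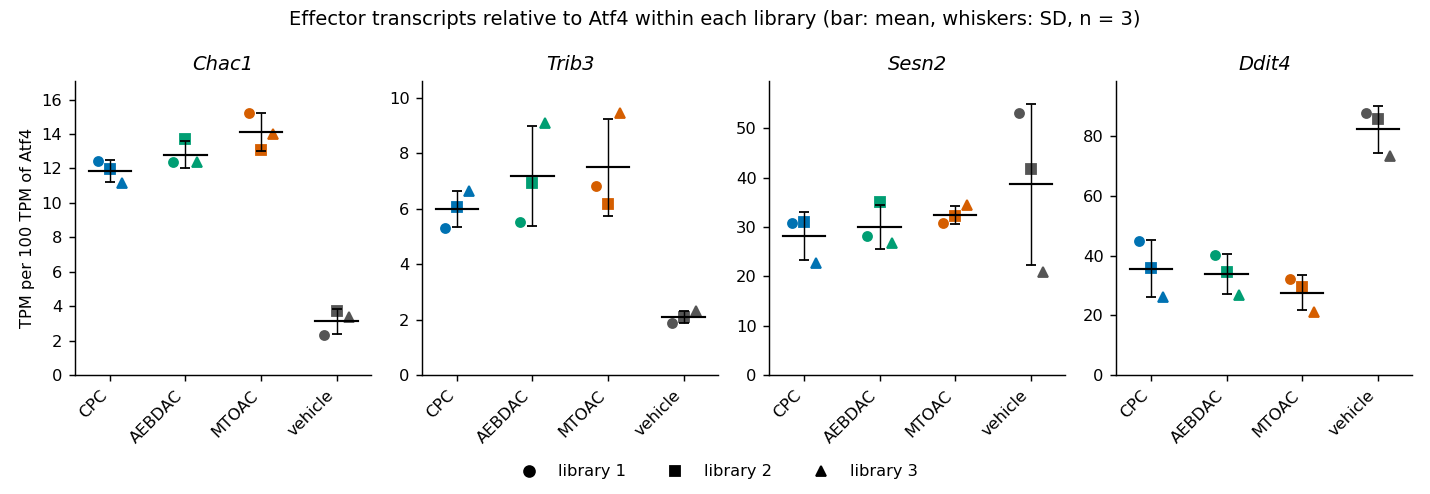
TPM of Chac1, Trib3, Sesn2 and Ddit4 per 100 TPM of Atf4 in the same library (y axes, linear, from 0), by group on the x axis; symbols mark libraries 1 to 3, bars the mean and whiskers the SD of 3 libraries. Chac1 is at 11.1 to 15.2 in the exposed libraries, against 2.31 to 3.70 in vehicle, and Ddit4 at 21.1 to 44.9, against 73.3 to 87.9 in vehicle, while Sesn2 overlaps vehicle.

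The partner factors of ATF4 gave no call with any compound. Ddit3 (chr10:127290774-127296288, plus strand), whose product CHOP is linked to cell death in prolonged stress, was at 8.04, 9.63 and 9.45 TPM in CPC libraries 1 to 3, at 10.8, 10.5 and 10.9 TPM in AEBDAC libraries 1 to 3 and at 10.2, 13.5 and 21.5 TPM in MTOAC libraries 1 to 3, against 12.7, 8.25 and 4.49 TPM in vehicle libraries 1 to 3. Vehicle library 1 was above all CPC and AEBDAC libraries, and MTOAC library 3 was the highest of the 12. The fold changes were 0.18, 0.41 and 0.80 log2 with CPC, AEBDAC and MTOAC (SE 0.31 each), with adjusted p = 0.844, 0.515 and 0.145. With MTOAC the 95% interval was 0.11 to 1.49 log2. A second gene model of the same symbol lies within this one, and the 3' end of Mars covers 68 bases of it on the other strand. The labels do not say that reads were assigned by strand, so reads there are uncertain.

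Cebpg (chr7:35046422-35056573, minus strand), a partner of ATF4 in antioxidant and amino acid gene control, was at 16.1, 23.4 and 23.5 TPM in CPC libraries 1 to 3, at 22.5, 24.1 and 33.7 TPM in AEBDAC libraries 1 to 3 and at 22.8, 19.0 and 38.5 TPM in MTOAC libraries 1 to 3, against 19.0, 15.7 and 16.5 TPM in vehicle libraries 1 to 3. All 3 AEBDAC libraries lay above vehicle, while CPC and MTOAC each had a library within the vehicle range. Its fold changes of 0.27, 0.60 and 0.56 log2 (SE 0.25 each) did not pass, with adjusted p = 0.675, 0.229 and 0.202. Cebpb (chr2:167688915-167690418, plus strand), a factor of stress and inflammatory genes, was at 8.43, 6.39 and 11.3 TPM in CPC libraries 1 to 3, at 11.2, 8.46 and 12.6 TPM in AEBDAC libraries 1 to 3 and at 9.29, 9.52 and 8.50 TPM in MTOAC libraries 1 to 3, against 4.70, 4.22 and 9.22 TPM in vehicle libraries 1 to 3. Vehicle library 3 was within the range of each exposed group. The fold changes were 0.50, 0.79 and 0.59 log2 (SE 0.27 each), with adjusted p = 0.452, 0.155 and 0.216. Averaged, the difference of 0.62 log2 (adjusted p = 0.107) passed without vehicle library 3 (0.93 log2, adjusted p = 0.0444). Tmem189 covers 908 bases of Cebpb on the other strand, and its mean of 20.9 to 21.5 TPM in the exposed groups, against 22.7 TPM in vehicle, was above that of Cebpb, so the Cebpb values are uncertain.

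Atf5 (chr7:44812256-44816658, minus strand) encodes a bZIP factor that is translated under eIF2 phosphorylation like ATF4 and acts in mitochondrial stress. Its TPM were 8.48, 16.1 and 20.0 in CPC libraries 1 to 3, 8.82, 6.49 and 18.4 in AEBDAC libraries 1 to 3 and 14.7, 5.50 and 0.834 in MTOAC libraries 1 to 3, against 1.99, 1.36 and 19.8 in vehicle libraries 1 to 3. The spread within groups was the widest of the 10, with a coefficient of variation of 136% in vehicle and 101% with MTOAC. The fold changes of 1.51, 1.09 and 0.11 log2 had an SE of 0.87 each and did not pass (adjusted p = 0.47, 0.525 and 0.956). Nup62 overlaps Atf5 by 571 bases on the other strand and was at 0.961 to 14.5 TPM, so here too reads are uncertain.

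Nupr1 (chr7:126623249-126630861, minus strand), a small chromatin-bound cofactor induced by ATF4 that protects stressed cells from death, had fold changes near those of Atf4 but a wide spread. It was at 16.6, 10.1 and 21.8 TPM in CPC libraries 1 to 3, at 23.7, 14.9 and 32.9 TPM in AEBDAC libraries 1 to 3 and at 20.4, 14.7 and 25.1 TPM in MTOAC libraries 1 to 3, against 7.35, 3.66 and 17.0 TPM in vehicle libraries 1 to 3. In all 4 groups library 2 was the lowest and library 3 the highest, and each exposed library was above the vehicle library of the same number. Across numbers the groups overlapped, through vehicle library 3. The fold changes were 0.89, 1.42 and 1.21 log2 with CPC, AEBDAC and MTOAC (SE 0.46 each) and did not pass (adjusted p = 0.422, 0.131 and 0.13). The averaged value of 1.17 log2 did not pass either (adjusted p = 0.0779), but did without vehicle library 3, the highest of its group (1.68 log2, adjusted p = 0.036).

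Counted over the 10 genes, 2 were called higher with CPC (Chac1 and Trib3), 3 with AEBDAC (with Atf4) and 4 with MTOAC (with Atf4 and Sesn2), and 0 were called lower with any compound. Of all 12009 genes, 0.0333% were called higher and 0.0333% lower with CPC, 0.391% higher and 0.883% lower with AEBDAC, and 0.791% higher and 5.75% lower with MTOAC. Averaged over the compounds 4 of the 10 were called higher and 0 lower, against 1.11% higher and 6.55% lower of all genes. Over all genes, quantile normalization gave 96 higher and 86 lower calls with AEBDAC and 213 higher and 217 lower with MTOAC. That method makes the distributions of all libraries equal, which itself favours a balance. It therefore cannot decide whether the excess of lower calls came from the scaling. Rescaling without mitochondrially encoded genes kept the excess, at 54 higher and 131 lower with AEBDAC and 118 higher and 677 lower with MTOAC. At an unadjusted p under 0.05, the number of the 10 was 4 with CPC, 7 with AEBDAC and 7 with MTOAC, all above vehicle, where 1.81%, 3.95% and 3.4% of all genes were above vehicle at that p. Fold changes were above 0 for 9 of the 10 with each compound, Ddit4 being the exception except under the settings named above for AEBDAC, and the median over the 10 was 0.73, 1.05 and 0.86 log2, against -0.17, -0.16 and -0.22 log2 over all genes. All exposed libraries lay above all vehicle libraries for 4 of the 10 with CPC, 5 with AEBDAC and 4 with MTOAC, where 2.58%, 5.65% and 3.99% of all genes did so. Across all 9 exposed libraries it was 4 of the 10 (Atf4, Chac1, Trib3 and Sesn2), against 1.34% of all genes. The 3 comparisons share the vehicle libraries, so they are not independent of each other. Since the 10 genes were chosen with earlier results of these data known, their counts and medians describe them and are no independent support. Without vehicle library 1 the calls were 1, 2 and 3 of the 10 with CPC, AEBDAC and MTOAC. Among all genes tested 1, 16 and 63 were then called higher. The count for CPC was also 1 without vehicle library 2, CPC library 2 or CPC library 3, with 2, 1 and 1 higher among all genes. That for MTOAC was 2 without MTOAC library 2, with 30 higher among all genes. In fits of a compound and vehicle alone, without the shared estimate of the spread, 0 of the 10 were called with CPC, 1 with AEBDAC (Chac1) and 2 with MTOAC (Chac1 and Trib3). Those fits called 0, 3 and 7 of all genes higher.

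**Figure D3:**
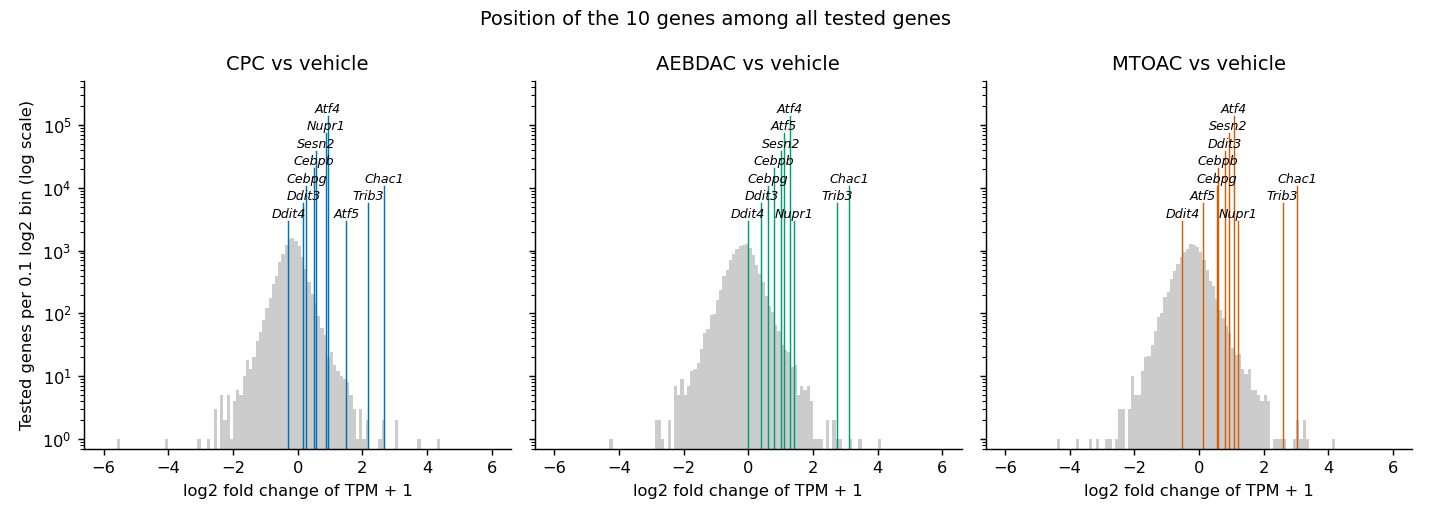
Number of tested genes (y axis, log scale) per 0.1 log2 bin of the fold change of TPM + 1 against vehicle (x axis) for CPC, AEBDAC and MTOAC; grey bars are all 12009 tested genes and vertical lines the 10 genes, with line heights staggered for legibility only. Chac1 and Trib3 lie among the 10 highest fold changes of each comparison, while Ddit4 lies within the bulk, at -0.29, -0.01 and -0.52 log2.

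Between compounds no gene passed. Of the 12009 genes 0% were called for AEBDAC against CPC, 0% for MTOAC against CPC and 0% for MTOAC against AEBDAC, with 211, 449 and 307 genes at an unadjusted p under 0.05 by limma and 0 of the 10 among them. The doses share the IC75 as their definition, but the concentrations behind it are not given, so dose and structure cannot be told apart in these pairs. For AEBDAC against CPC, the fold change was above 0 for 9 of the 10 genes. That of Chac1 was 0.45 log2 (95% interval -0.11 to 1.003), that of Trib3 0.56 log2 (-0.05 to 1.17), that of Sesn2 0.44 log2 (-0.04 to 0.92) and that of Atf4 0.34 log2 (-0.10 to 0.79). For MTOAC, the compound without an aromatic ring, against CPC it was above 0 for 8 of the 10, with Chac1 at 0.37 log2 (-0.19 to 0.92) and Atf4 at 0.12 log2 (-0.32 to 0.57). For MTOAC against AEBDAC it was above 0 for 1 of the 10, Ddit3, at 0.39 log2 (-0.30 to 1.08), and Chac1 was at -0.08 log2 (-0.63 to 0.48). Over all genes the median half-width of these intervals was 0.55 log2. The intervals are not adjusted for the number of genes, so differences of that size and larger could be missed. The compounds are not shown to act alike.

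**Figure D4:**
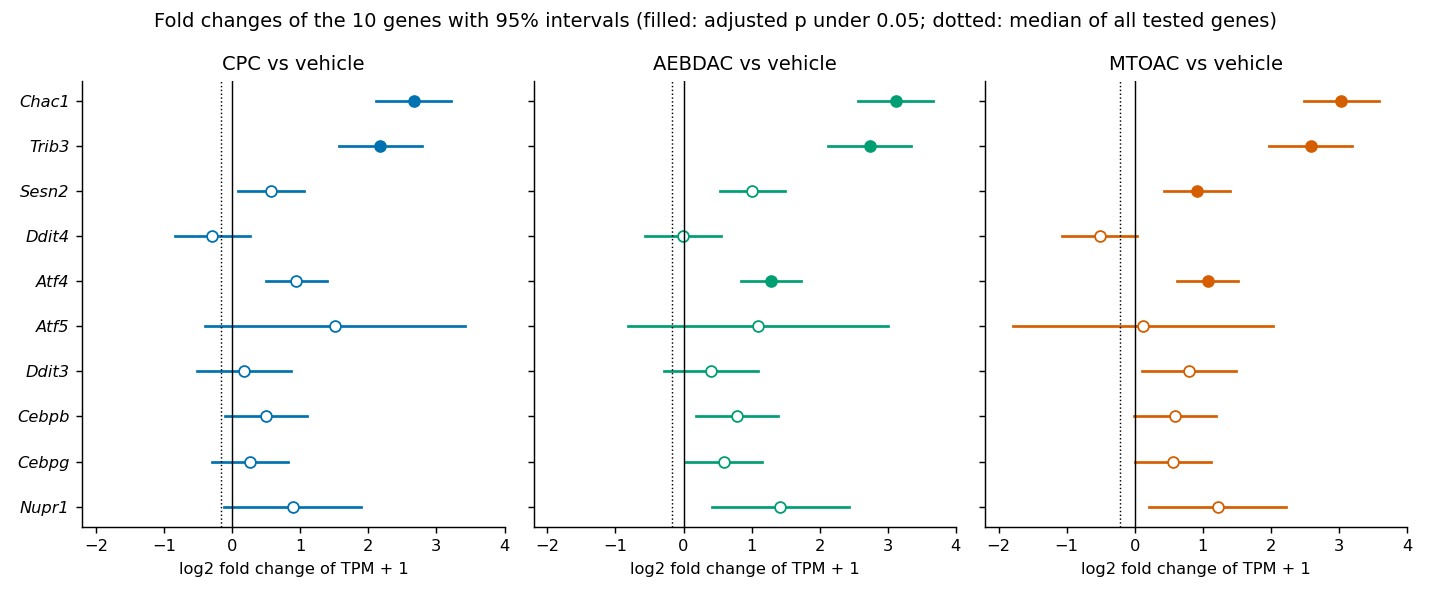
Log2 fold change of TPM + 1 against vehicle (x axis) of the 10 genes for CPC, AEBDAC and MTOAC; points are limma estimates, lines 95% intervals, filled points adjusted p under 0.05, and the dotted line the median of all tested genes. Chac1 lies at 2.66, 3.11 and 3.03 log2 and Trib3 at 2.18, 2.73 and 2.58 log2, to the right of the other 8 genes in each panel.

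The genes that act above ATF4 and the rest of its known targets were read from lists. Like the 10 genes, these lists were chosen with earlier results of these data known, so their counts are descriptions. Of 9 genes for eIF2, its kinases and its phosphatase subunits 7 were tested and 0 passed in either direction with any compound, where 0.0333% to 5.75% of all genes were called in 1 direction, so that 0 of 7 is near the background. They had medians of -0.33, -0.17 and -0.23 log2 for CPC, AEBDAC and MTOAC, against -0.17, -0.16 and -0.22 log2 for all genes. The most abundant were Eif2s1, the phosphorylated subunit itself, at 59.1 ± 7.57, 62.4 ± 15.1 and 58.7 ± 1.80 TPM with CPC, AEBDAC and MTOAC, against 69.0 ± 4.53 TPM in vehicle, and Ppp1r15b, the constitutive phosphatase subunit, at 44.1 ± 4.79, 53.4 ± 6.95 and 56.8 ± 10.4 TPM, against 39.2 ± 6.91 TPM in vehicle (SD, n = 3 each). Eif2ak1, the heme-sensing kinase, was lower in all 9 exposed libraries than in any vehicle library, at -0.55 log2 averaged (adjusted p = 0.0543, and 0.011 with the replicate block). Eif2ak2, the double-stranded RNA kinase PKR, overlapped vehicle, at -0.83 log2 averaged (adjusted p = 0.0786, and 0.0187 with the block). For the average, the block called 1794 of all 12009 genes lower, and without it the median gene lay at -0.18 log2. Same-numbered libraries of AEBDAC and MTOAC did not deviate together with vehicle for all 3 numbers. How many genes lay below vehicle in all 9 exposed libraries was not counted. Ppp1r15a, the inducible phosphatase subunit and a textbook CHOP target, and Eif2ak3, the kinase PERK, were below the filter. Ppp1r15a was at 0 in 9 of the 12 libraries, its other values being 0.105 to 0.425 TPM, and Eif2ak3 was at 0 to 1.60 TPM with the compounds, against 0 to 1.16 TPM in vehicle. These values are low for genes that most cells use, and whether they are true levels was not tested.

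Of 39 other targets of ATF4 or CHOP 38 were tested, and 1 rose with CPC, 7 with AEBDAC, 9 with MTOAC and 12 when averaged, with 0 lower in each, against 0.0333%, 0.391%, 0.791% and 1.11% higher of all genes. Their median fold changes were 0.27, 0.45 and 0.39 log2 for CPC, AEBDAC and MTOAC, and 0.34 log2 averaged, against -0.18 log2 for all genes. With the replicate number as a block, 5 rose with CPC, where same-numbered libraries deviated together: Asns, Pck2, Slc7a5, Slc3a2 and Mthfd2, with 34 higher among all genes. The gene that rose with CPC without the block was Mthfd2, a mitochondrial folate enzyme, at 118 ± 23.3 TPM with CPC, 155 ± 22.3 TPM with AEBDAC and 172 ± 25.8 TPM with MTOAC, against 51.3 ± 4.14 TPM in vehicle (SD, n = 3 each). Slc7a5 and Slc3a2, the light and heavy chains of a large neutral amino acid exchanger, rose by 1.08 log2 (adjusted p = 0.00571) and 1.02 log2 (adjusted p = 0.00806) when averaged. Asns, asparagine synthetase, rose by 3.06 log2 (adjusted p = 0.00207), with 5.49 to 22.8 TPM in the exposed libraries, against 0 to 1.88 TPM in vehicle, where library 3 is listed at 0. Also higher on average were Slc1a4, a carrier of small neutral amino acids (0.63 log2), Pck2, mitochondrial phosphoenolpyruvate carboxykinase (0.82), Eif4ebp1, a repressor of cap-dependent translation (0.98), and Herpud1, a component of endoplasmic reticulum protein disposal (1.06). The tRNA synthetases Sars (1.51 log2) and Cars (0.66), the lipoprotein receptor Vldlr (0.66) and the stress hormone Fgf21 (1.16) complete the 12. Fgf21 stayed under 4 TPM and was at most at 0.18 TPM in vehicle, so it was tested through its exposed libraries alone, and Asns reached 1 TPM in 1 vehicle library and 9 exposed ones. A gene that was tested only because its exposed libraries were high was selected for a difference, so the calls of both describe the values and are no support for the count. Slc7a1 and Gdf15 also had no vehicle library at 1 TPM and were not called. Asns is included in the counts of 5 (with the block), 7, 9 and 12 above, and Fgf21 in those of 9 and 12. Both are also among the called genes whose promoter windows held the core.

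Other known targets gave no call in spite of high levels. Psat1, a serine synthesis enzyme, was at 415 ± 12.6, 412 ± 37.0 and 441 ± 61.0 TPM with CPC, AEBDAC and MTOAC, against 468 ± 115 TPM in vehicle (SD, n = 3 each), with an averaged fold change of -0.13 log2 (adjusted p = 0.586). Gars, glycyl-tRNA synthetase, was at 188 ± 18.3, 207 ± 22.1 and 219.5 ± 27.2 TPM, against 165 ± 17.4 TPM in vehicle (0.30 log2, adjusted p = 0.101). Atf3, a bZIP repressor that follows ATF4 in many cells, was below the filter and listed at 0 in 10 of the 12 libraries, with 4.69 TPM in CPC library 3 and 1.81 TPM in AEBDAC library 2.

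Of 10 paralogues of the 10 genes 8 were tested and 0 passed with any compound, which is near the shares of all genes called, 0.0333% higher to 5.75% lower, and so sets them apart in no way. With the block, 2 were called higher and 1 lower with AEBDAC and 1 higher and 1 lower with MTOAC, Trib2 being higher and Sesn1 lower with both. Among all 12009 genes the block called 225 higher and 847 lower with AEBDAC, and 245 higher and 1659 lower with MTOAC. For these 2 compounds same-numbered libraries did not deviate together with vehicle for all 3 numbers. Without the block the paralogues had medians of -0.21, 0.04 and -0.16 log2 for CPC, AEBDAC and MTOAC. Trib2, a relative of Trib3, was at 122 ± 34.0, 149 ± 26.6 and 152 ± 17.8 TPM with CPC, AEBDAC and MTOAC, against 109 ± 23.3 TPM in vehicle (0.36 log2 averaged, adjusted p = 0.228), so it was more abundant than Trib3 in every group. Sesn3, a relative of Sesn2, was at 93.6 ± 5.10, 101 ± 9.49 and 93.2 ± 6.02 TPM, against 122 ± 49.2 TPM in vehicle (-0.27 log2 averaged, adjusted p = 0.361). Of 36 other bZIP factors 31 were tested, and 0 rose with CPC, 1 with AEBDAC (Fos), 3 with MTOAC (Fos, Fosl2 and Nfil3) and 3 averaged (Fos, Junb and Nfil3), with 0 lower, against the same shares of all genes as for the targets. Fosl2, at most at 0.0574 TPM in vehicle, was tested through its exposed libraries alone. Fos, an immediate early factor, rose by 1.51 log2 averaged (adjusted p = 0.0103), Nfil3, a repressor of the PAR bZIP family, by 1.03 log2 (adjusted p = 0.0189) and Junb by 0.92 log2 (adjusted p = 0.0327). The most abundant without a call were Jund, at 149 ± 4.94, 183 ± 3.74 and 152 ± 36.4 TPM with CPC, AEBDAC and MTOAC, against 135 ± 36.7 TPM in vehicle, and Nfe2l1, at 68.9 ± 10.4, 69.3 ± 11.1 and 70.8 ± 4.12 TPM, against 60.7 ± 9.95 TPM in vehicle. No test compared one list with another.

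**Figure D5:**
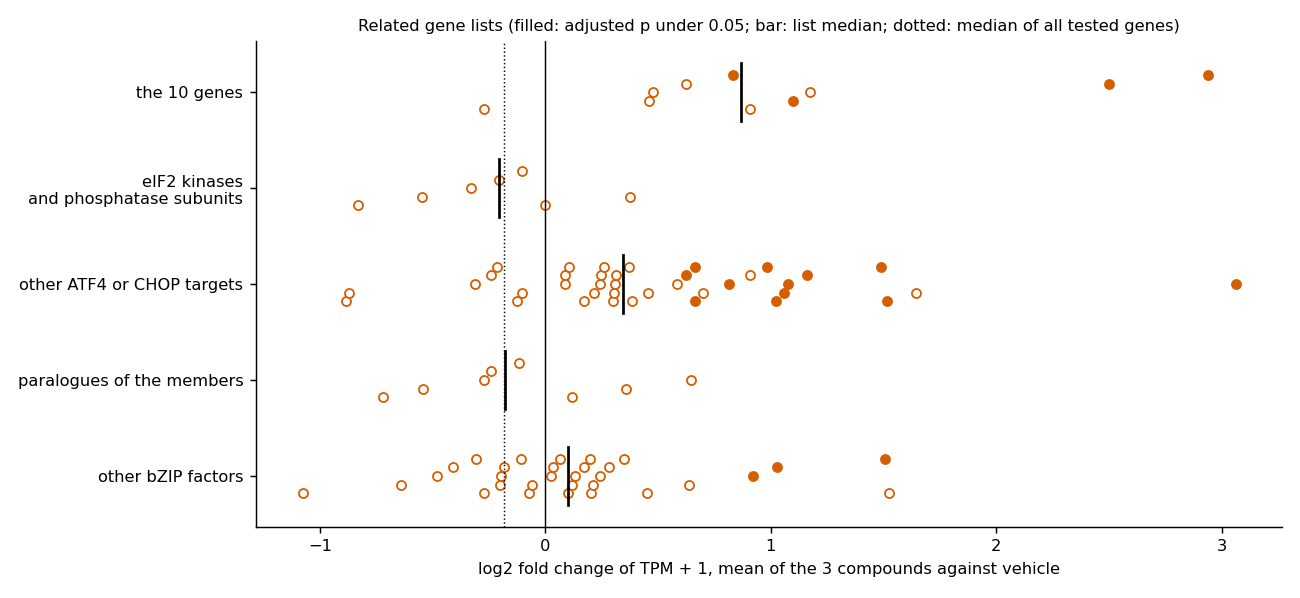
Log2 fold change of TPM + 1 (x axis), averaged over the 3 compounds against vehicle, for the tested genes of 5 lists (rows, with points staggered vertically for legibility only): the 10 genes, eIF2 kinases and phosphatase subunits, other ATF4 or CHOP targets, paralogues, and other bZIP factors. Filled points have an adjusted p under 0.05, thick bars are list medians (0.87, -0.21, 0.34, -0.18 and 0.10 log2) and the dotted line is the median of all tested genes, -0.18 log2.

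The genes whose levels were most like those of Atf4 were found by Pearson's r of log2(TPM + 1) over the 12 libraries, among 8227 genes that averaged 5 TPM or more. Among the most alike were Irf2bp2, a transcriptional corepressor (0.97), Hmox1, heme oxygenase (0.97), Mrps30, a mitochondrial ribosomal protein (0.96), and Sars (0.96). Chac1 was 6th (0.96) and Trib3 8th (0.95), while Sesn2 was 168th, Cebpb 204th, Nupr1 376th, Cebpg 725th, Atf5 736th, Ddit3 1583rd and Ddit4 2415th. For Chac1 the most alike were Trib3 (0.98), the copine Cpne1 (0.97), the signalling scaffold Git1 (0.97), the immediate early receptor Nr4a1 (0.96) and Atf4 (0.96). These values describe likeness over 9 exposed and 3 vehicle libraries and are set in part by the difference between exposed and vehicle libraries, so they carry no test. After subtracting the group means, r with Atf4 was 0.85 for Irf2bp2, 0.87 for Hmox1, 0.80 for Mrps30 and 0.94 for Sars. It was then 0.91 for Chac1, 0.75 for Trib3, 0.67 for Atf5, 0.55 for Ddit4 and 0.37 for Cebpb. For Sesn2, Nupr1, Cebpg and Ddit3 it was 0.09, 0.05, -0.16 and -0.63.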

How the data were processed

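RNA of the 12 libraries was sequenced by a service provider as read pairs, per the labels' protocols. The authors deposited gene-level TPM for 35385 symbols in each library. They used Salmon and mm10, per the submitters' processing notes; the sources used here give neither versions nor annotation. TPM keep no depth, so no counting interval can be given, and a rise of abundant transcripts lowers the others. From the TPM, limma 3.58.1 in R 4.3.3 (trend, robust, two-sided) was fitted on log2(TPM + 1), a scale that understates changes at low levels. A gene entered if 3 or more libraries had 1 TPM or more, which left 12009, with 4 group means in 1 fit of 12 libraries and adjustment within a comparison. The average of the 3 compounds against vehicle is a contrast of the same fit. The 10 genes, the related lists and the markers were chosen with earlier results of these data known. From each list the called genes and the 2 most abundant uncalled ones are named, and for likeness the 5 highest r.

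Replicate numbers come from the titles. Same-numbered libraries were taken as paired where the correlation, across genes, of their deviations from the group means exceeded 0.1 for all 3 numbers. That held for CPC with vehicle (0.34, 0.31 and 0.23), AEBDAC with CPC (0.28, 0.42 and 0.23) and MTOAC with AEBDAC (0.33, 0.36 and 0.30). Coordinates are from GENCODE M21 on GRCm38, the assembly of mm10, to which 34858 symbols matched. Alternatives were a pseudocount of 0.1, no filter, quantile normalization, rescaling without mitochondrially encoded genes, fits of 2 groups alone, the replicate block and leaving out each library. In simulated data on 12009 genes, 50%, 53% and 58% of genes changed by 1 log2 and 83%, 97% and 93% of those changed by 2 log2 were recovered, with 7, 7 and 13 false calls, in the order CPC, AEBDAC and MTOAC against vehicle. The 3 simulations shared 1 spread per gene and differed in the random draw only, so they do not rank the compounds. Noise was normal and independent, and changes were planted only in genes with a mean log2(TPM + 1) above 2. Far more genes were planted than the 8 called with CPC. The adjusted threshold is stricter where fewer genes pass, so the recovery may overstate what could be called with CPC. Actb lay at 31.6 to 76.2 TPM and Eef1a1 at 34.0 to 63.2 TPM, low for these genes, for a reason that was not tested. A gene that the rule for likeness would name is not reported here.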

Additional observations from a re-analysis of the deposited data

How the results depend on the processing

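Of 890 values of the 10 genes under alternatives, 835 kept their direction and their side of the threshold, 10 became called, 23 lost a call and 22, none of them called, changed sign. Fits of 2 groups alone, with fewer samples, called 0, 1 and 2 of the 10 for CPC, AEBDAC and MTOAC, and 0, 3 and 17 of all genes. Between compounds such fits called 1 gene for AEBDAC against CPC and 1 for MTOAC against AEBDAC. Without the filter 38, 404 and 552 genes were called for AEBDAC, MTOAC and the average, and 1 each for AEBDAC and MTOAC against CPC. Quantile normalization gave 16 for CPC (12 higher, 4 lower), 430 for MTOAC (213 higher, 217 lower) and 598 averaged (295 higher, 303 lower), and split the AEBDAC calls into 96 higher and 86 lower. With the replicate number as a block the counts were 184, 1072, 1904 and 2110 for CPC, AEBDAC, MTOAC and the average, and 3, 5, 5 and 6 of the 10. For AEBDAC and MTOAC, where same-numbered libraries did not meet the pairing rule (0.08, 0.25 and 0.03, and -0.03, 0.35 and -0.19), the block added Nupr1 (adjusted p = 0.00885 and 0.00808) and, for AEBDAC, Sesn2 (0.00694). For CPC it added Atf4 (0.0448). For the average it added Nupr1 (0.00416) and Cebpb (0.0383), and it changed no other call of the 10. Leaving out 1 library gave 1 to 6, 9 to 105, 152 to 584 and 168 to 1079 genes for CPC, AEBDAC, MTOAC and the average, 0 to 1 for MTOAC against CPC, and 1 to 2, 2 to 3, 2 to 4 and 3 to 5 of the 10. Sign changes were Ddit4 with AEBDAC under quantile normalization (0.0705) and rescaling (0.00695), Cebpg for MTOAC against AEBDAC under quantile normalization (0.0224), and otherwise leaving out 1 library. Those ranges, in log2, were -0.17 to 0.49 for Ddit3 with CPC, -0.15 to 0.11 for Ddit4 with AEBDAC and -0.61 to 1.10 for Atf5 with MTOAC. For MTOAC against CPC they were -0.0367 to 0.26 for Atf4, -0.0933 to 0.27 for Cebpb and -0.41 to 0.0874 for Ddit4. For MTOAC against AEBDAC they were -0.33 to 0.17 for Cebpg, -0.49 to 0.0547 for Nupr1, -0.18 to 0.0547 for Chac1, -0.39 to 0.0675 for Trib3 and -0.22 to 0.0562 for Sesn2.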
